A study of Homo sapiens with 18 samples.

Results

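The 10 genes described here are the transcription factors and core targets of the ATF4 and CHOP branch of the integrated stress response: ATF4, DDIT3 (which encodes CHOP), TRIB3, ASNS, CEBPB, CEBPG, ATF5, PPP1R15A, NUPR1 and STC2. They were chosen by name for their place in this pathway, with earlier results of these data known. All 10 were found by Ensembl identifier among the 58302 genes of the deposited count table, and all 10 were among the 16751 genes that passed the filter on low counts. RNA was sequenced from U87MG, an established human glioblastoma cell line listed as U87 in the labels. The control group had 2 replicates under normal growth, for which the labels name no vehicle. The other group had 2 replicates exposed to 10 μM Erastin, an inhibitor of cystine uptake through system Xc-, over 72 h. Both groups were this single line in the same serum-containing DMEM, and a single dose and time were sequenced. The study asked which transcripts change in glioblastoma cells undergoing ferroptosis, and the comparison below gives the part of that answer that concerns these genes.

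The integrated stress response begins with kinases that sense amino acid shortage, misfolded proteins in the endoplasmic reticulum, heme deficiency or viral RNA and phosphorylate the translation initiation factor eIF2α. General protein synthesis then slows, whereas the mRNAs of ATF4 and of some of its partners, which carry short reading frames upstream of the main start codon, are translated more. ATF4 binds DNA together with C/EBP proteins at composite elements and switches on genes for amino acid supply, and CHOP, its best known target among transcription factors, is linked to cell death under lasting stress. RNA-seq counts measure the mRNAs and not the proteins.

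The upstream start codons can be counted in the transcripts themselves. In the canonical transcripts of GENCODE release 44, 7 of the 10 genes had at least 1 ATG in the leader, the part before the main start codon. Of all 19188 canonical protein-coding transcripts with a leader, 42.8% had one. The leaders of ATF4 and DDIT3 held 3 upstream ATGs each, those of ATF5, PPP1R15A and TRIB3 held 2 each, and those of CEBPG and STC2 held 1 each. In ATF4, DDIT3 and ATF5 a reading frame opened by an upstream ATG ran past the main start codon in another frame, an arrangement found in 13.6% of the 19188 transcripts. ASNS, CEBPB and NUPR1 had no upstream ATG.

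Promoters were searched for TGATGNAA, the core shared by C/EBP-ATF response elements, on both strands of the RefSeq windows from 250 bases before to 50 bases after each start (GRCh38.p14). Of 27305 genes with a window, 4.46% held a match. NUPR1 had no entry, and of the other 9 genes ASNS and CEBPG held a match. Both are printed below because they are the places in the searched windows of these genes where the sequence of the element can be read. They are given 5′ to 3′ on the strand of the gene, with the 8 matching letters in capitals. The match of ASNS begins 68 bases before a start and lies at chr7:97872459-97872486. That of CEBPG begins 42 bases before a start and lies at chr19:33374061-33374088.
ASNS: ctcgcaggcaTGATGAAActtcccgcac
CEBPG: gcgcggcgtcTGATGCAAcctgccggca
A match describes the letters of the window only, and sequence outside the windows was not searched. With N read as C alone, CEBPG kept its match and ASNS did not.

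The 4 libraries held between 29412656 and 31513519 counts on genes, and their TMM factors lay between 0.971 and 1.02. Replicates varied by 10.3% around their mean beyond counting error (biological coefficient of variation). Mitochondrial genes took 7.23% to 7.85% of counts without Erastin and 2.80% to 3.54% with it. With these genes left out, no log2 fold change of the 10 genes changed its side of the threshold. Of 8 markers of glioblastoma lines, VIM and CD44 were abundant, whereas SOX2 had 0 to 6 counts and S100B 0 to 2 counts in a library. NES and CHI3L1 were called lower, with log2 fold changes of −3.62 and −2.26. The summed level of the 8 was 4143 to 4182 CPM (counts scaled by TMM to a common library size) in control and 2714 to 2903 CPM in Erastin libraries. Of 11 markers of other cell types, AIF1 and KRT18 were at 0 in all 4 libraries, and PTPRC and CDH5 had at most 1 count in a library. Of the 31-base words of AIF1 and KRT18, 77.3% and 71.3% recur elsewhere in hg38, where reads would not be counted, so a 0 for these genes is weak evidence of absence. The sum of the 11 was 40.7 to 47.1 CPM in control and 5.35 to 6.49 CPM in Erastin libraries, carried mostly by SNAP25 and PECAM1. The part of these differences in the results below was not tested. In bulk RNA, a larger share of cells with a transcript and more of that transcript per cell cannot be told apart. Nothing in the labels says that the replicates came from separate cultures, so the p-values measure the spread between these libraries.

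All 10 genes were higher in Erastin-treated cells. With an adjusted p under 0.05 and a log2 fold change of at least 1, the thresholds of the study, 7 of the 10 were called higher and 0 lower by edgeR's quasi-likelihood test, against 6.24% of all tested genes called higher and 9.34% called lower. At an adjusted p under 0.05 without a limit on size, 10 of the 10 were higher, against 23.2% of all tested genes that were higher and 23.7% that were lower. The groups did not overlap for any of the 10 genes, with Erastin above control. That held for 36.7% of tested genes, and the opposite order for 36.9%. The median log2 fold change of the 10 genes was 1.51, from 0.25 for CEBPB to 3.01 for ATF5, whereas that of all tested genes was −0.0026. The summed level of the 10 genes was 822 and 832 CPM in control replicates 1 and 2, and 2416 and 2378 CPM in Erastin replicates 1 and 2. ATF4 alone made up 26.5% and 30.0% of that sum in control cells and 39.1% and 39.9% after Erastin.

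**Figure D1:**
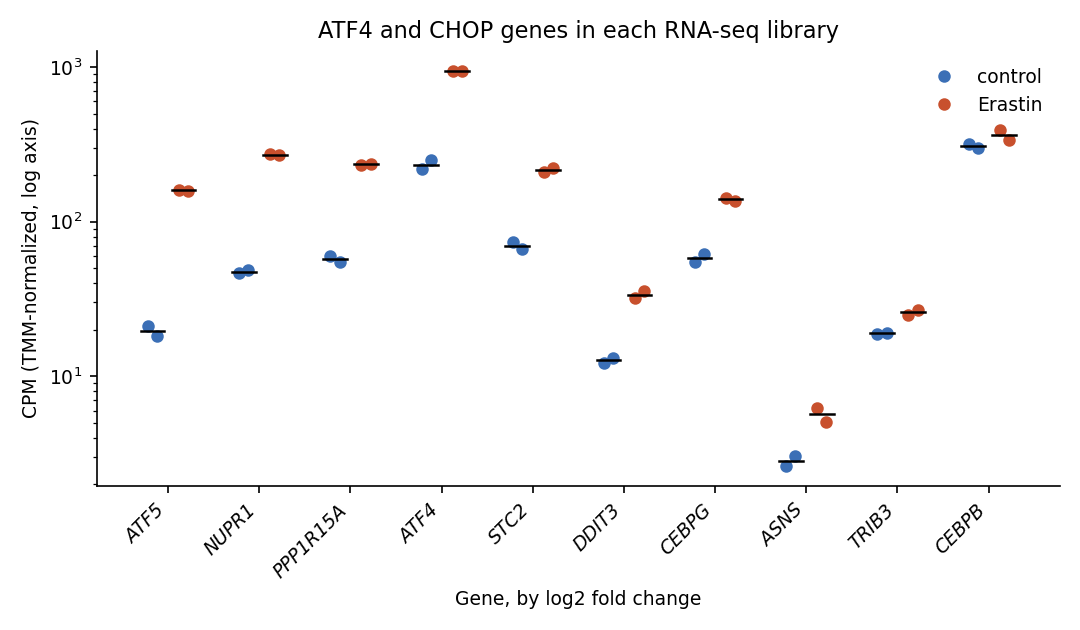
Expression of the 10 genes in each of the 4 RNA-seq libraries, in CPM on a log axis. Points are libraries, black bars are group means (n = 2), and genes are ordered by log2 fold change. The Erastin points lie above the control points for every gene, widely for ATF5 (159 and 160 against 18.3 and 21.2 CPM) and narrowly for CEBPB (338 and 393 against 298 and 316 CPM).

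ATF4 (ENSG00000128272), the basic leucine zipper factor at the centre of the response, lies on chromosome 22 of GRCh38 from 39519695 to 39522685. Control replicates 1 and 2 gave 6657 and 7747 counts, and Erastin replicates 1 and 2 gave 28236 and 29826, or 218 and 249 CPM against 944 and 949 CPM. The Erastin libraries lay close together and well above both control libraries, which differed more from each other. ATF4 thus rose 4.05-fold, or by 2.02 ± 0.0759 (standard error) on the log2 scale, at an edgeR adjusted p of 2.09e-09. Leaving out each library in turn kept it between 1.92 and 2.11. ATF4 has processed copies in the genome: 57.4% of the 31-base words of its canonical transcript occur elsewhere in hg38. Reads with several matching places were left out of the table, and how many ATF4 reads that removed was not measured here. The 4 annotated copies ATF4P1 to ATF4P4 had at most 41 counts in a library.

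ATF5 (ENSG00000169136), a close relative of ATF4 that is also translated under stress and is linked to the mitochondrial unfolded protein response, showed the largest rise of the 10 genes. Its gene spans chromosome 19 from 49928702 to 49933935. Counts of 649 and 567 in control cells stood against 4775 and 4993 after Erastin, or 21.2 and 18.3 CPM against 160 and 159 CPM. On the log2 scale the rise was 3.01 ± 0.0877 (standard error; edgeR adjusted p = 4.05e-10), or 8.07-fold, which was place 159 among all tested genes ranked from the highest value. Of its 2954 exon bases, 700 are shared with other genes, 626 of them with NUP62 on the opposite strand, and reads on shared bases were not counted. NUP62 itself had fewer counts in the Erastin libraries, 2237 and 2277 against 2778 and 2636.

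DDIT3 (ENSG00000175197) encodes CHOP, a C/EBP family member that forms dimers with its relatives and turns them away from their usual sites. The gene is on chromosome 12 from 57516588 to 57520517. It had 375 and 410 counts in control and 958 and 1112 in Erastin libraries, or 12.3 and 13.2 CPM against 32.03 and 35.4 CPM. Both Erastin libraries were above both control libraries by more than the spread within either group. DDIT3 rose by 1.40 ± 0.117 (standard error) on the log2 scale, with an adjusted p of 1.55e-06 by edgeR, a smaller rise than that of ATF4. The difference between the rises was not tested. DDIT3 shares 355 of its 1266 exon bases with MARS1 on the opposite strand, which also rose, from 195 to 298 CPM (log2 fold change 0.61, adjusted p = 1.06e-05 from edgeR). Because reads on shared bases were left out and the counting took no account of strand, the DDIT3 counts come from the other 911 bases.

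CEBPG (ENSG00000153879) encodes the C/EBP protein that pairs with ATF4 at amino acid response elements, and its promoter window holds a match printed above. On chromosome 19 from 33373330 to 33382686, it had 1675 and 1923 counts in control and 4283 and 4249 in Erastin libraries, or 54.8 and 61.9 CPM against 143 and 135 CPM. The groups did not overlap, and CEBPG rose by 1.25 ± 0.0798 (standard error) on the log2 scale (edgeR adjusted p = 1.60e-07). No exon base of CEBPG is shared with another gene, and none of its 31-base words recurs elsewhere.

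CEBPB (ENSG00000172216), which encodes a C/EBP activator of acute-phase, differentiation and stress genes, was already high in control cells and moved least. CEBPB is a single exon on chromosome 20 from 50190734 to 50192689. It had 9651 and 9256 counts in control and 11750 and 10630 in Erastin libraries, or 316 and 298 CPM against 393 and 338 CPM. The lower Erastin library lay only a little above the higher control library. The rise of 0.25 ± 0.0784 (standard error) on the log2 scale passed the test (edgeR adjusted p = 0.0195) but not the limit on size. Without Erastin replicate 1 the log2 fold change was 0.14 and the adjusted p 0.305. Control cells held 7.70% and 9.21% as much CEBPG as CEBPB per exon length, and Erastin-treated cells 16.2% and 17.7%.

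**Figure D2:**
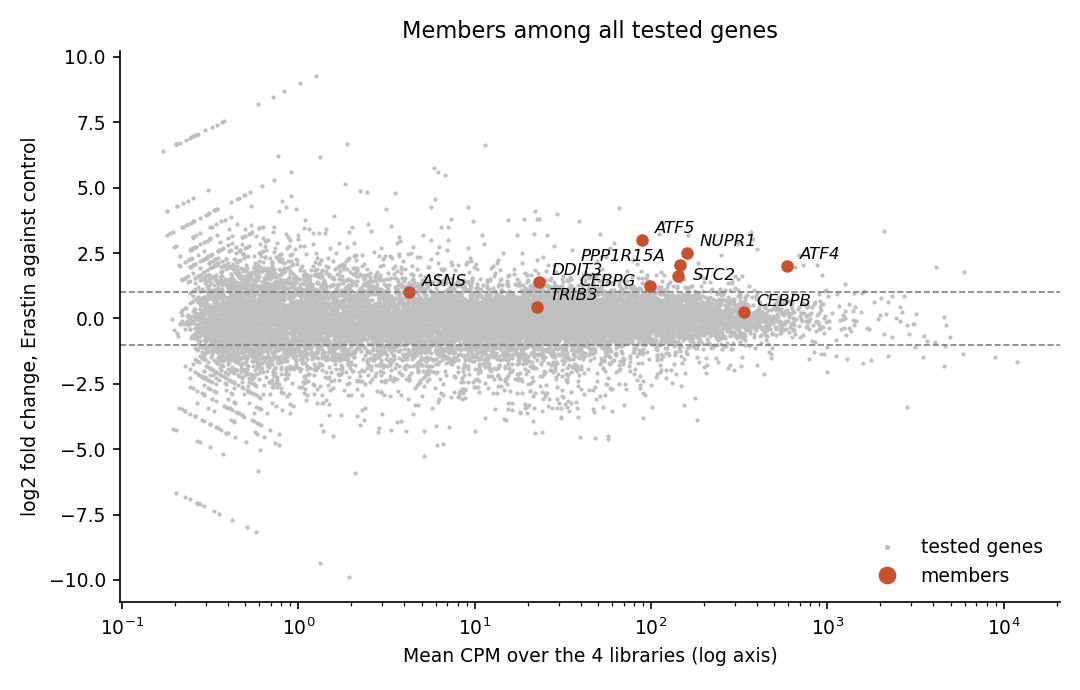
Log2 fold change of every tested gene (grey) against its mean CPM over the 4 libraries on a log axis, with the 10 genes in orange and dashed lines at log2 fold changes of 1 and −1. The 10 genes spread from 0.25 for CEBPB to 3.01 for ATF5, ASNS lies on the upper dashed line at a low level, and TRIB3 and CEBPB lie below it.

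PPP1R15A (ENSG00000087074) encodes GADD34, the regulatory subunit that brings protein phosphatase 1 to eIF2α and so ends the response. It is encoded on chromosome 19 from 48872392 to 48876057. Control cells gave 1830 and 1699 counts and Erastin-treated cells 6940 and 7458, or 59.8 and 54.7 CPM against 232 and 237 CPM. The difference between the groups was far larger than that between replicates, and the rise was 2.03 ± 0.0736 (standard error) on the log2 scale (edgeR adjusted p = 1.64e-09). Its value lay next to that of ATF4 and within their standard errors.

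TRIB3 (ENSG00000101255), a pseudokinase that binds ATF4 and CHOP and restrains them, changed little in size. It lies on chromosome 20 from 362835 to 397559 and had 574 and 593 counts in control and 750 and 842 in Erastin libraries, or 18.8 and 19.1 CPM against 25.1 and 26.8 CPM. The control libraries were nearly equal and both Erastin libraries were above them. TRIB3 rose 1.37-fold, or by 0.45 ± 0.111 (standard error) on the log2 scale, at an edgeR adjusted p of 0.00536, and so stayed under the limit on size. Dropping any single library gave values from 0.41 to 0.50. Ranked by log2 fold change, TRIB3 had place 3742 of the 16751 tested genes, whereas DDIT3 had place 843 and ATF4 place 403.

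NUPR1 (ENSG00000176046) encodes a small stress-induced nuclear protein that acts with transcription factors. It lies on chromosome 16 from 28532708 to 28539174, and its counts were 1414 and 1508 in control and 8156 and 8483 in Erastin libraries, or 46.2 and 48.5 CPM against 273 and 270 CPM. Both pairs of replicates lay close together. The 5.72-fold rise, 2.52 ± 0.0706 (standard error) on the log2 scale with an edgeR adjusted p of 3.98e-10, came next to that of ATF5 among the 10 genes. Of the 31-base words of its canonical transcript 25.9% recur elsewhere in hg38.

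ASNS (ENSG00000070669), the enzyme that makes asparagine from aspartate and glutamine, is a classical amino acid response gene, and its promoter window holds the other match printed above. The gene occupies chromosome 7 from 97852118 to 97872542. Its counts were low, 80 and 95 in control and 187 and 160 in Erastin libraries, or 2.62 and 3.06 CPM against 6.25 and 5.09 CPM. Another gene of the annotation on the same strand shares 1985 of its 4455 exon bases and had at most 9 counts in a library. Reads on the shared bases were counted for neither gene, and 14.1% of the 31-base words of ASNS recur elsewhere, so its level per exon length is a low estimate. ASNS rose by 0.998 ± 0.241 (standard error) on the log2 scale (edgeR adjusted p = 0.00499), just under the limit of 1 and with the largest standard error of the 10 genes. DESeq2 gave 1.002 (adjusted p = 0.0101) and so called it higher.

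STC2 (ENSG00000113739) encodes a secreted glycoprotein induced by ATF4 under endoplasmic reticulum stress. Its place is chromosome 5 from 173314713 to 173329503. Counts were 2244 and 2058 without and 6233 and 6967 with Erastin, or 73.4 and 66.2 CPM against 208 and 222 CPM. The groups were well apart, and STC2 rose 3.08-fold, by 1.62 ± 0.0763 (standard error) on the log2 scale (edgeR adjusted p = 1.30e-08). Dropping any single library gave 1.54 to 1.70.

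Levels of different genes were compared per exon length, as RPKM (CPM divided by the exon length in kilobases). In control cells CEBPB was highest, at 157 ± 6.39 RPKM (SD, n = 2), followed by ATF4 at 92.9 ± 8.91 RPKM (SD, n = 2). In Erastin-treated cells ATF4 came first, at 377 ± 1.48 RPKM (SD, n = 2), and CEBPB second, at 187 ± 19.7 RPKM (SD, n = 2). The ratio of ATF4 to CEBPB per exon length was 0.537 and 0.651 without Erastin, against 1.87 and 2.18 with it. The order of ATF4 and CEBPB in control cells depends on the length used. As a rough check, each exon length was reduced by the share of 31-base words of the canonical transcript found elsewhere in hg38. This takes that share to hold over the whole exon length and no read from those words to have been counted. For ATF4 the share came from 1389 words and was applied to 2514 exon bases. ATF4 then came first in both groups, and the ratio was 1.25 and 1.51 without Erastin and 4.34 and 5.07 with it. NUPR1 then also came above DDIT3 in control cells and above ATF5 in Erastin-treated cells. The rise of the ratio is the same under any fixed length. Below them in Erastin-treated cells came PPP1R15A at 75.9 ± 1.22 RPKM, ATF5 at 53.9 ± 0.175 RPKM and NUPR1 at 47.8 ± 0.336 RPKM (SD, n = 2 each), which were apart by more than their spread. STC2 at 35.1 ± 1.54 RPKM and CEBPG at 31.6 ± 1.28 RPKM were closer to each other, and DDIT3 followed at 26.6 ± 1.88 RPKM. TRIB3 at 7.55 ± 0.355 RPKM and ASNS at 1.27 ± 0.184 RPKM were lowest, the value of ASNS being the low estimate described above. In control cells the middle of the order was close: CEBPG at 13.2 ± 1.14, STC2 at 11.4 ± 0.824 and DDIT3 at 10.1 ± 0.522 RPKM (SD, n = 2 each) followed one another at gaps little larger than these SDs, with NUPR1 at 8.35 ± 0.287 and ATF5 at 6.68 ± 0.712 RPKM below them. DDIT3 had 11.2% and 10.5% of the ATF4 level per exon length in control libraries and 6.74% and 7.40% in Erastin libraries, whereas ATF5 went from 8.30% and 6.23% to 14.4% and 14.2%, shares of ATF4 that carry the same limit on its length. When only the exon bases shared with no other gene were used as length, 5 of the 10 genes in control cells changed place, with DDIT3 at 14.0 RPKM moving above CEBPG and STC2, and ATF5 at 8.76 RPKM above NUPR1. In Erastin-treated cells DDIT3, at 37.0 RPKM, moved above STC2 and CEBPG.

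**Figure D3:**
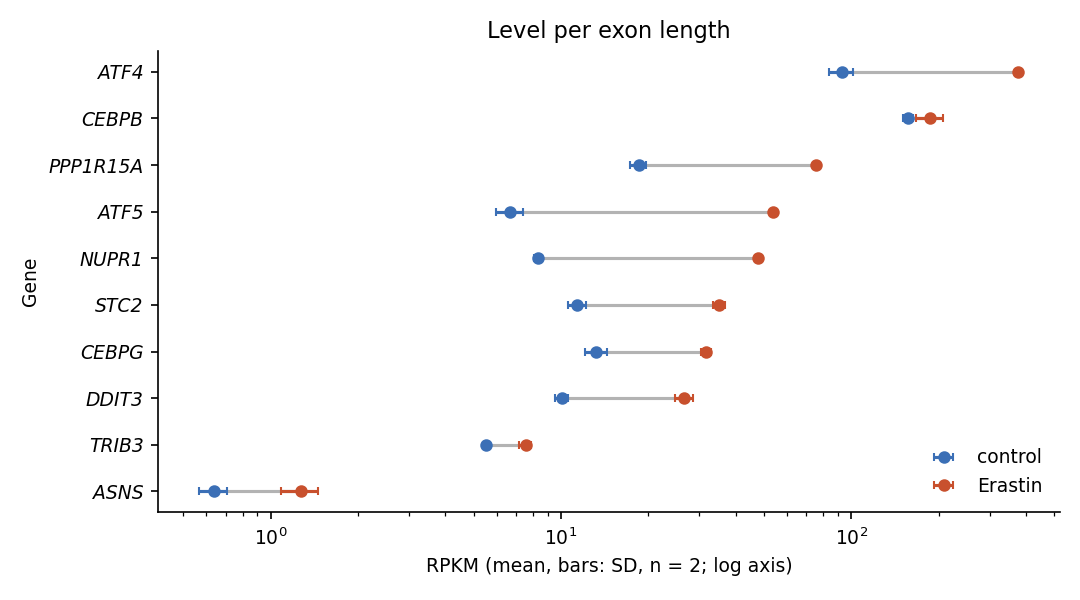
Level per exon length of the 10 genes in RPKM on a log axis, as the mean of 2 control libraries and the mean of 2 Erastin libraries with SD bars. ATF4 lies below CEBPB in control (92.9 against 157 RPKM) and above it after Erastin (377 against 187 RPKM). The order in control turns when the length leaves out words found elsewhere in hg38. ASNS is lowest in both groups, at levels that are low estimates because reads on its shared exon bases were not counted.

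Relatives from the same gene families were read from the same fit. Of 21 relatives listed, 16 were tested, of which 1 was called higher and 2 lower, with a median log2 fold change of 0.16. These counts are near the shares of all tested genes called, 6.24% higher and 9.34% lower. ATF3, a stress-induced repressor that is itself an ATF4 target, was the one called higher, with 850 and 852 counts in control and 3869 and 4197 in Erastin libraries (log2 fold change 2.25 ± 0.0752, adjusted p = 1.01e-09 by edgeR). TRIB2, another tribbles pseudokinase, was called lower: it had 92.4 and 98.7 CPM in control and 17.7 and 15.9 CPM in Erastin libraries (log2 fold change −2.51, adjusted p = 1.76e-09 by edgeR). TRIB1 had 39.0 and 40.7 CPM against 44.9 and 45.03 CPM, and its adjusted p was 0.125. BATF3, a partner of Jun proteins in lymphoid and myeloid cells, fell from 16.4 to 7.27 CPM. Among the C/EBP genes CEBPA and CEBPE had 0 counts in all 4 libraries, which allows up to 3 counts in a library, and CEBPD had a log2 fold change of 0.15 (adjusted p = 0.532). PPP1R15B, the constitutive partner of PPP1R15A, rose by 0.48 on the log2 scale, from 75.6 to 105 CPM (adjusted p = 0.000199 from edgeR). STC1, the other stanniocalcin, had 220 and 217 CPM in control and 222 and 260 CPM in Erastin libraries (log2 fold change 0.14, adjusted p = 0.163). ASNSD1, an asparagine synthetase domain protein, rose by 0.40 (adjusted p = 0.00148), and NUPR2 had 0 counts. Whether a member and its relative differed in their change was not tested.

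**Figure D4:**
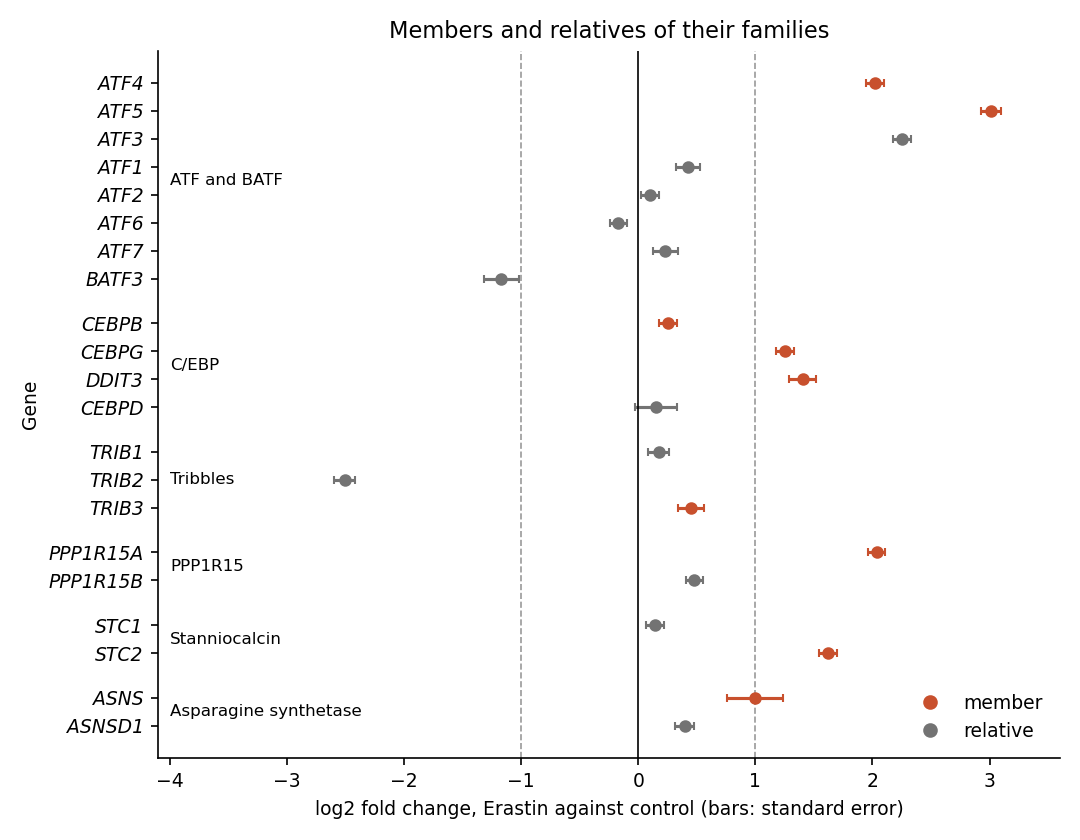
Log2 fold change (Erastin against control) of members in orange and tested relatives in grey, by gene family, with bars of 1 standard error and dashed lines at 1 and −1. The member NUPR1 and the tested relatives CREB1, CREB3, CREBZF and BATF2 are not shown. TRIB2 lies at −2.51 while TRIB3 lies at 0.45, STC1 lies at 0.14 while STC2 lies at 1.62, and ATF3 lies between ATF4 and ATF5 at 2.25.

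The genes upstream of ATF4 moved much less. Of 21 tested genes for eIF2α kinases, eIF2 and its exchange factor, and protein phosphatase 1, 0 were called higher and 1 lower, with a median log2 fold change of −0.024, near that of all tested genes. At an adjusted p under 0.05 without a limit on size, 4 were higher and 6 lower. Of all tested genes, 6.24% were called higher and 9.34% lower, and 23.2% were higher and 23.7% lower at that adjusted p. The counts of this list past the adjusted p alone are near those shares. EIF2AK3, which encodes the endoplasmic reticulum kinase PERK, rose from 30.4 to 42.1 CPM (log2 fold change 0.47, adjusted p = 0.00280 from edgeR). EIF2AK1, the heme-regulated kinase, fell by 0.33 and EIF2AK2, the double-stranded RNA kinase PKR, fell by 0.51 on the log2 scale (adjusted p = 0.00389 and 9.91e-05). EIF2AK4, the amino acid sensor GCN2, had a log2 fold change of −0.16 with an adjusted p of 0.0673. The gene called lower was PPP1CC, the gamma catalytic subunit of protein phosphatase 1, which went from 224 to 105 CPM (log2 fold change −1.09). These are mRNA levels, and phosphorylation of eIF2α was not measured here.

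Other targets of ATF4 were higher in most cases. Of 33 listed, 32 were tested, of which 14 were called higher and 0 lower, against 6.24% and 9.34% of all tested genes. At an adjusted p under 0.05, 25 were higher and 3 lower, against 23.2% and 23.7% of all tested genes. The median log2 fold change was 0.87. ATF3, already called among the relatives above, is also among these 14. The called genes with the largest change were SLC7A11, the transporter subunit of system Xc-, ADM2, a secreted peptide, GDF15, a stress-induced cytokine, and CHAC1, which degrades glutathione, with log2 fold changes of 3.67, 3.30, 2.90 and 2.76. ADM2 had only 2 and 4 counts in control and 26 and 35 in Erastin libraries. The 3 that were lower were SLC38A2, ALDH18A1 and PYCR1, named after their values were seen, at −0.47, −0.70 and −0.39. The first carries small neutral amino acids, and the other 2 make proline. Of the 27 genes of this list with a promoter window, 9 held a match to TGATGNAA, against 4.46% of all genes with a window. ATF3, CHAC1, JDP2 and SLC3A2 held it and were called higher. AARS1, GARS1, MARS1 and TARS1 held it and were not called, and FGF21 held it but was not tested. With N read as C alone, 6 of the 27 held a match, and ATF3 did not. Of 6 CHOP targets, 2 were called higher and 0 lower, against 6.24% and 9.34% of all tested genes. The 2 called were the proapoptotic genes BBC3 and TNFRSF10B, with log2 fold changes of 1.84 and 1.61. At an adjusted p under 0.05, 3 were higher and 1 lower, against 23.2% and 23.7% of all tested genes. The lower one was the proapoptotic BCL2L11, named after its value was seen (log2 fold change −0.60, adjusted p = 0.0304 from edgeR). ERO1A, an oxidase of the endoplasmic reticulum often given as a CHOP target and named here after its value was seen, had 123 CPM in control and 112 CPM in Erastin-treated cells (log2 fold change −0.13, adjusted p = 0.226).

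The genes listed for the ATF6 and XBP1 branches of the unfolded protein response moved in both directions. Of 21 listed genes, 20 were tested, of which 0 were called higher and 2 lower, against 6.24% and 9.34% of all tested genes. At an adjusted p under 0.05, 5 were higher and 10 lower, against 23.2% and 23.7% of all tested genes. The share that was lower at that adjusted p was thus larger than over all tested genes. The median log2 fold change was −0.32. The 2 called lower were the chaperone HSP90B1, from 1200 to 487 CPM (log2 fold change −1.30), and the disulfide isomerase PDIA4, from 530 to 244 CPM (−1.12). HSPA5, which encodes the chaperone BiP and was named after its value was seen, fell by 0.83 on the log2 scale (adjusted p = 1.23e-06 from edgeR). ERN1, which encodes the sensor IRE1 that splices XBP1 mRNA, rose from 20.9 to 39.4 CPM (log2 fold change 0.91, adjusted p = 1.74e-05), and XBP1 itself rose by 0.34 (adjusted p = 0.00177), both also named after their values were seen. HERPUD1, EDEM1 and DNAJB9 were the other 3 that were higher. DNAJB9 is also on the list of CHOP targets and was counted there too. Of the words of HSP90B1 and HSPA5, 25.1% and 24.7% recur elsewhere in hg38.

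The mitochondrial relay to ATF4 and the genes named as ATF5 targets gave 0 called in either direction among 9 tested of 10 listed. At an adjusted p under 0.05, 2 were higher and 3 lower, and the median log2 fold change was −0.14. Of all tested genes, 6.24% were called higher and 9.34% lower. At that adjusted p alone, 23.2% of them were higher and 23.7% lower. DELE1 and OMA1, which carry the mitochondrial signal to the heme-regulated kinase and were named after their values were seen, had log2 fold changes of 0.092 and −0.30 (adjusted p = 0.378 and 0.0642). Among 9 genes that control the turnover of ATF4 or CHOP protein, 1 was called higher and 0 lower, and 4 were higher and 1 lower at an adjusted p under 0.05 (median 0.66). The called gene was SQSTM1, the autophagy receptor p62, whose libraries disagreed: 1011 and 320 counts in control and 10782 and 1317 in Erastin libraries. It was not called by DESeq2, nor without Erastin replicate 1.

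**Figure D5:**
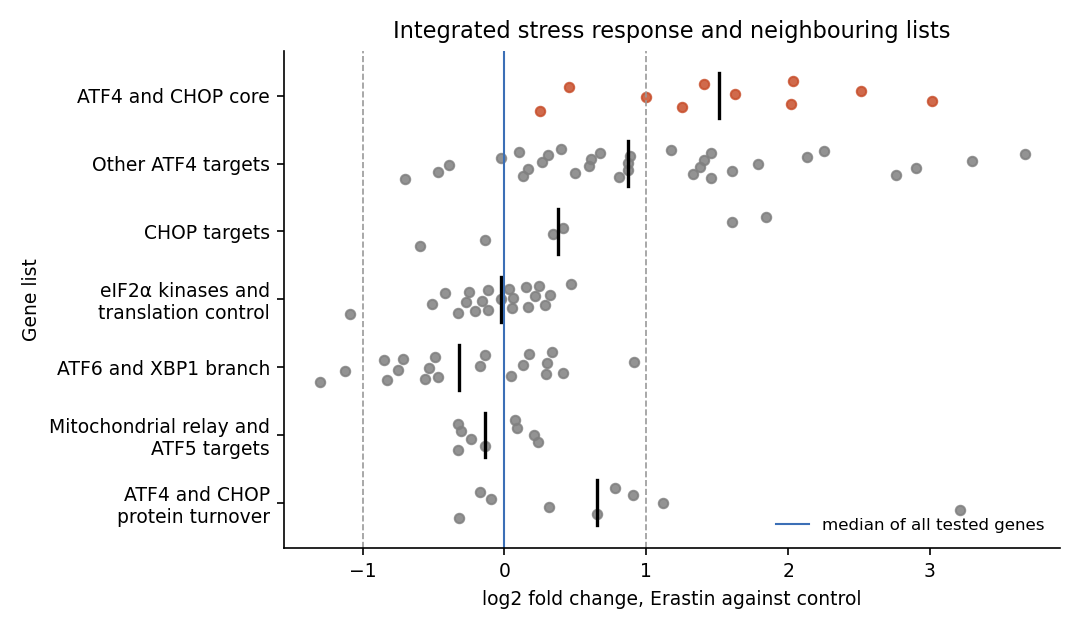
Log2 fold change of each tested gene in the 10-gene core (orange) and in 6 lists of neighbouring genes (grey), with black bars at list medians, a blue line at the median of all tested genes and dashed lines at 1 and −1. The core has a median of 1.51 and the other ATF4 targets 0.87, whereas the ATF6 and XBP1 list has −0.32.

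The genes most like ATF4 and DDIT3 over the 4 libraries were found by the Euclidean distance between log2 CPM values, each centred on the gene's own mean, among genes outside the 10 that averaged 10 CPM or more. Nearest to ATF4 were KRT10-AS1, CTSK and PNLIPRP3, at distances of 0.0338, 0.0483 and 0.118 and with log2 fold changes of 2.04, 1.98 and 2.07. Nearest to DDIT3 were TIPARP, OTUD6B-AS1 and FAS, at distances of 0.0539, 0.0622 and 0.0777 and with log2 fold changes of 1.37, 1.37 and 1.44. With 2 groups of 2 libraries this likeness is in effect one of fold change.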

How the data were processed

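Total RNA of control and Erastin-treated U87MG cells was sequenced in 2 libraries each. The authors deposited raw counts of reads per gene which, per the file header, were written by featureCounts 2.0.3 without strand, from alignments to GRCh38 with the annotation of Ensembl release 90. The submitters' notes name HISAT2 2.1.0. Reads of a pair were counted separately, and reads on more than 1 gene or place were left out. None of the deposited counts was an estimated count with a fraction: 0 values had decimals.

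Symbols were joined by Ensembl identifier for 57532 of 58302 genes. The test was the two-sided quasi-likelihood test of edgeR 4.0.16 under R 4.3.3, after filterByExpr (minimum count 10) and TMM, with Benjamini-Hochberg adjustment over the 16751 genes kept. Each standard error is the log2 fold change divided by the root of its F statistic. Permuting 2 against 2 libraries gives no exact p below 0.333, and edgeR borrows its variance from all genes. CPM and RPKM used TMM-scaled totals and the exon lengths of the table. Reads from PCR are not independent molecules.

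The 10 genes and the other lists were chosen with earlier results of these data known. Named genes were the members, up to 4 called genes per list with the largest change, family relatives, the eIF2α kinases and the nearest genes to ATF4 and DDIT3. Words of 31 bases were compared with all of hg38, including 261 alternate scaffolds. On simulated counts for this comparison with 16751 genes, edgeR recovered 200 of 200 changed genes with 2 false calls. The planted changes were all well past the log2 limit of 1 and lay only in genes with higher counts. Recovery of smaller changes or of genes with low counts was therefore not tested. Alternatives included DESeq2 1.42.0. ChIP-seq and HiChIP data were not analysed here.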

Additional observations from a re-analysis of the deposited data

How the results depend on the processing

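No result for the 10 genes changed direction under the alternatives. These were DESeq2, RLE size factors, library totals, no filter on low counts and a minimum of 10 counts in each library. Further ones were counts thinned to the smallest library, counts divided by 2 and rounded up to stand for read pairs, and glmTreat. The last were the replicate block, nuclear genes only (chosen after seeing the data) and each library left out in turn. Of 140 recomputed log2 fold changes, 135 kept their side of the threshold, and the other 5 were all of ASNS, which passed the limit of 1 with DESeq2 (1.002), library totals (1.046), thinning (1.07), without control replicate 2 (1.11) and without Erastin replicate 2 (1.14). With glmTreat, which tests against the limit itself, 377 genes were called higher and 748 lower in place of 1046 and 1564, and 7 of the 10 genes were still called higher. Past the adjusted p alone, 9 of the 10 genes were higher without Erastin replicate 1, CEBPB being the exception, and 10 under each other alternative that gave this count. With each library left out in turn, 895 to 1066 genes were called higher and 1446 to 1526 lower. Same-numbered replicates are not said to be paired, and over genes, which are not replicates, their deviations correlated at 0.0203. With the replicate block 1039 genes were called higher and 1568 lower, and it changed no call among the 10 genes. With exon bases shared by no other gene as length, 5 of the 10 genes kept their place in the order of control levels. With the length reduced by the words found elsewhere, also chosen after seeing the data, 6 kept it, and ATF4 came above CEBPB. With N of the motif read as C, 1 of the 2 matching genes kept its match. ASNS had the fewest counts of the 10 genes, 80 to 187 in a library.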
